A study of Homo sapiens with 6 samples.

Results

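The comparison described here is the first hour in which human Caco-2 cells were kept with THP-1 cells, as 1 array at 1 h against 1 array at 0 h, of 6 arrays in all. Every gene with a probe set of its own was considered. Of 19775 such genes, 12936 had a signal above a floor of 16.2 on at least 1 of the 2 arrays and are called measured, and 7641 of these reached a signal of 100 on their brighter array. Signals are MAS5 signals, a background-corrected probe-set intensity on a linear scale, and each gene is represented by its brightest probe set. The floor is the median of all deposited values.

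Caco-2 cells come from a human colorectal adenocarcinoma and, once confluent, polarise into a sheet resembling the absorptive epithelium of the small bowel. THP-1 cells come from a human monocytic leukaemia and become adherent and macrophage-like under phorbol myristate acetate (PMA). Both arrays are of Caco-2 cells kept for 14 days on a porous culture insert. Before the 1 h array, that insert had stood for 1 h in a 12-well plate whose wells held THP-1 cells after 4 days of PMA, so the cell layers shared medium without touching, and the 0 h array is the start of that time course. Labels name no drug or genetic change in the Caco-2 cells. The study asked which Caco-2 genes respond to the coculture, and its later arrays were taken at 3, 6, 24 and 48 h. An array of Caco-2 cells moved to a plate without THP-1 cells is not among those analysed here, so effects of THP-1 cells, of residual PMA, of transfer and of fresh or conditioned medium cannot be told apart. Each time is 1 array, with no replicate culture, so no test was made and every value has n = 1.

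NF-kB is a family of transcription factors held in the cytoplasm by inhibitor proteins of the IkB family. Inflammatory stimuli such as tumour necrosis factor, interleukin-1 or bacterial products lead to destruction of the inhibitor, and the freed factor enters the nucleus and switches on chemokines, adhesion molecules and its own inhibitors. Growth factors and stress act in parallel through MAP kinases on immediate-early genes, which are transcribed without new protein synthesis and whose mRNAs are mostly short-lived. Intestinal epithelial cells use both routes, and the chemokines they release call neutrophils, T cells and dendritic cells to the mucosa.

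Chemokines of the CXCL group, CCL20, the NF-kB inhibitor TNFAIP3, IER3 and the immediate-early factors NR4A1 and EGR1 were among the 25 largest rises after 1 h in genes with a signal of at least 100 on either array, beside genes of no such group such as C11orf96, ARL14, PHLDA2, TCIM and EPHA2. Among measured genes, 280 (2.16%) stood at least 2-fold above 0 h and 215 (1.66%) at least 2-fold below it, 495 (3.83%) together. This excess of rises turned round with a floor at the 30th percentile, to 828 higher and 986 lower, and with a limit of 1.5-fold, to 959 and 1194. Among the 7641 genes whose brighter array reached 100, 150 were higher (1.96%) and 55 were lower (0.72%), 205 (2.68%) together. The imbalance widened with the size of the difference, since 55 of these brighter genes passed 3-fold upwards and 5 passed it downwards. At 8-fold the counts were 11 and 1. The middle of the distribution hardly moved, with a median log2 ratio of -0.04 and quartiles of -0.25 and 0.18 over the brighter genes. In what follows, rose and fell mean at least 2-fold, which is a rule of size and no test. Counts of list members that rose or fell stand against the 2.16% and 1.66% of all measured genes.

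The precision of a single ratio depended on how bright the gene was. The spread of the log2 ratio between probe sets of the same gene, which holds differences between transcripts and leaves out differences between cultures, had a robust SD of 0.43 at signals of 32 to 64 and 0.16 above 1024. At 32 to 64, 5.21% of genes were higher and 6.83% were lower, so the directions were about equally common there. Above 1024, 2.24% were higher and 0.224% were lower. Among signals of 16.2 to 32 no gene could pass 2-fold, because the floor bounds the ratio. The nearest genes inside the limit of 2-fold were PMEPA1, VAC14 and KLF13, the last at 2.01-fold, and the nearest outside it were SLC9A8, EXOSC6 and TADA2B, the last at 1.98-fold. Their distance from the limit is far smaller than this spread.

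The trimmed mean signal was 93.8 on each array, which follows from the scaling of each array. Over the 9 spiked hybridisation controls the median log2 ratio was 0.01. The 3'-to-5' ratio of the ACTB control probe sets, which reads RNA integrity and labelling, was 51.2 at 0 h and 27.7 at 1 h. The 0 h array, to which every fold refers, had the highest ACTB ratio of the 6 arrays. The later arrays ranged from 18.0 at 6 h to 37.0 at 48 h. For GAPDH the ratio was 4.69 at 0 h, 3.81 at 1 h and highest at 24 h with 4.72. The part of the difference between 0 h and 1 h in the results was not tested. All 13 Caco-2 markers measured were above the floor on both arrays, and their summed signal was 22615 at 0 h and 24065 at 1 h. Of 26 macrophage markers with a probe set, 13 were above the floor at 0 h and 11 at 1 h, and their summed signal was 1191 and 993. The defining marker PTPRC had signals of 5.68 and 2.84, both under the floor, as did CD163, MARCO, SPI1 and FCGR1A. CD14 had 59.8 and 51.3, and the brightest of the list, AIF1 and LYZ, stood at 360 and 247 already at 0 h. Of the 13 measured macrophage markers none rose 2-fold, a number too small to read against the 2.16% of all measured genes, and FCER1G fell from 37.7 to 17.2. In a bulk sample, fewer cells of a type and less RNA per cell cannot be told apart.

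**Figure D1:**
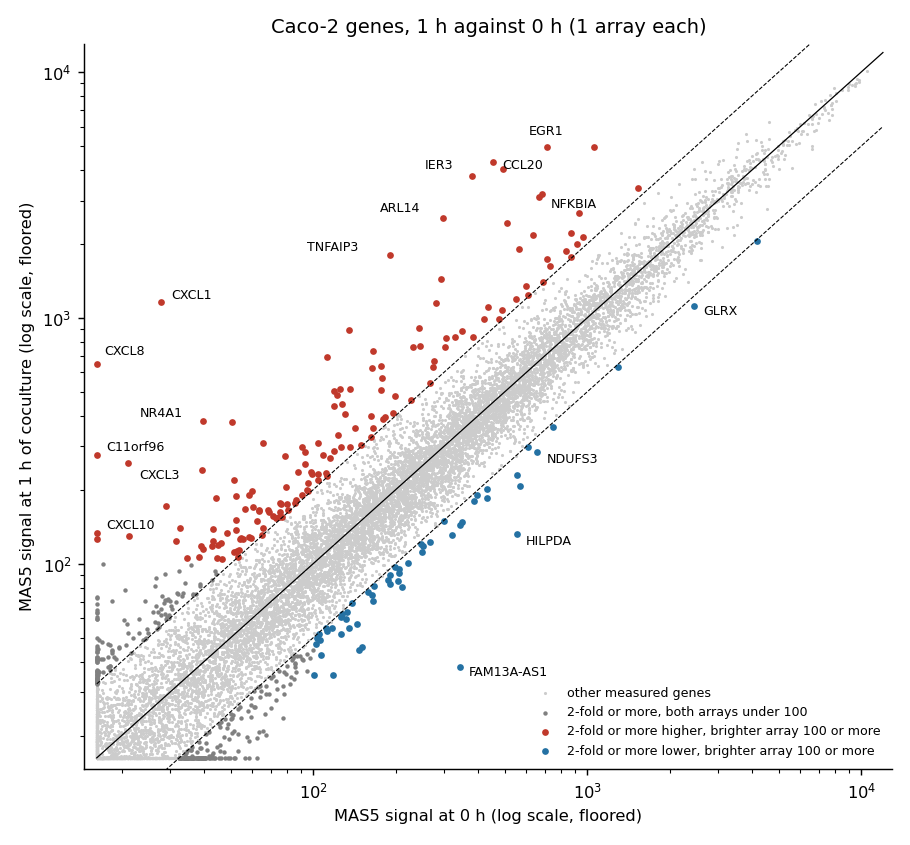
Signal of each of the 12936 measured genes at 0 h (x axis) and at 1 h (y axis), both as MAS5 signals on log scales with values under 16.2 drawn at that floor. Each point is 1 gene on 1 array a side, the solid line marks equal signals, the dashed lines mark 2-fold, and the coloured points are the 150 genes that rose and the 55 that fell among those reaching 100, with CXCL1 and CXCL8 furthest above the line.

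The chemokines that attract neutrophils through the receptors CXCR1 and CXCR2 are encoded close together on chromosome 4, and all that were measured rose. Their promoters are shown first, because they share 1 short sequence. The letters are the 120 bases before the RefSeq start of each gene (GRCh38.p14), 5' to 3' on the strand of the gene. Capitals mark matches to GGAATTTCC or to the kB consensus, a degenerate form of the sequence that NF-kB is known to bind, and in CXCL8 also TATAAA, the TATA element.
CXCL8, chr4:73740449-73740568, plus strand: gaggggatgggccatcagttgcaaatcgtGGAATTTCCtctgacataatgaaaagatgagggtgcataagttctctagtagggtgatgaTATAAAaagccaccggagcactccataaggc
CXCL1, chr4:73869273-73869392, plus strand: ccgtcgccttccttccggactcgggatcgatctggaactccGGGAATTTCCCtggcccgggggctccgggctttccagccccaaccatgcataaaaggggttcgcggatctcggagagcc
CXCL2, chr4:74099196-74099315, minus strand: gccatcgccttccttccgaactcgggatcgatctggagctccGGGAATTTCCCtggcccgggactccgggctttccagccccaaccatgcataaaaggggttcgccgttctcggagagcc
CXCL3, chr4:74038690-74038809, minus strand: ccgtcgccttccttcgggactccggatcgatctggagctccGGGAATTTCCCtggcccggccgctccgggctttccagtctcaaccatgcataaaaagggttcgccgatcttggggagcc

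The match lay 91 to 83 bases before the start in CXCL8 and 79 to 69 bases before it in CXCL1 and CXCL3, where overlapping matches on both strands join. In CXCL2 it lay 78 to 68 bases before the start. The windows of CXCL1 and CXCL3 were identical at 109 of 120 positions, so these are related copies and not independent examples. Their transcripts are also alike, so probe sets of CXCL1, CXCL2 and CXCL3 may share signal.

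CXCL1 had a signal of 27.8 at 0 h and 1158 at 1 h, a 41.6-fold difference and the largest measured on both arrays. CXCL8, which encodes interleukin-8, was under the floor at 0 h with 8.50 and reached 652 at 1 h, at least 40.2-fold higher. CXCL3 went from 21.1 to 256 (12.1-fold). CXCL2 was already present at 0 h with 135 and reached 890 at 1 h (6.60-fold). The remaining members of the list, CXCL5, CXCL6 and PPBP, stayed under the floor on both arrays. The 4 measured members thus all rose, with a median log2 ratio of 4.47, where the median over all measured genes was -0.05. Without probe sets ending in _x_at, which marks possible cross-hybridisation, or in _s_at, only CXCL1 and CXCL3 were measured, and both rose. CXCL8 and CXCL2 had no other probe set above the floor on the 2 arrays. With the median over probe sets, their log2 ratios were 2.66 and 0.0, and 3 of the 4 genes rose. That median takes in probe sets above the floor on a later array only, whose ratio at 1 h the floor fixes at 0.0. The lower values of CXCL8 and CXCL2 are therefore no disagreeing measurement. The later arrays differed between the 4 genes. CXCL1 was highest at 1 h, with 667 at 3 h, 548 at 6 h and 42.5 at 48 h. CXCL8 was higher at 3 h (925) and 6 h (1541) than at 1 h, and was back at 36.0 at 48 h. CXCL2 and CXCL3 stayed near their 1 h signal up to 6 h, with 938 and 259 there.

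Of 5 other measured chemokines, CCL20 and CXCL10 rose. CCL20, the ligand of CCR6 on T helper 17 cells and immature dendritic cells, was abundant from the start, with 453 at 0 h, and reached 4303 at 1 h (9.50-fold). It remained at 5520 at 3 h and 4229 at 24 h. CXCL10, a ligand of CXCR3 on activated T cells, was under the floor at 0 h with 10.8 and had 133 at 1 h, at least 8.23-fold higher, then 237 at 3 h and 255 at 6 h. CXCL16, a membrane-bound chemokine, differed little (316 and 403), and CCL28, a mucosal chemokine, had 165 and 122. The 11 other listed chemokines with a probe set were under the floor on both arrays, among them CCL2, CCL5, CXCL9 and CXCL11. ACKR3, a scavenging receptor for CXCL12, went from 65.6 to 311 (4.75-fold), and its other probe set had a log2 ratio of 1.20.

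Of 16 measured cytokines, 1 passed 2-fold (6.25%, against 2.16% of all measured genes), namely LTB, from 4.18 under the floor to 36.0, at least 2.22-fold higher, and the median log2 ratio was 0.06. LTB encodes lymphotoxin beta, a TNF family member, and its signal was 142 at 6 h. TNF was under the floor on both arrays, with 1.22 and 3.15. IL6 had 8.17 and 22.9, under and just above the floor. IL1B had 30.8 and 32.1, and IL18, which epithelial cells make constantly, had 234 and 244.

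**Figure D2:**
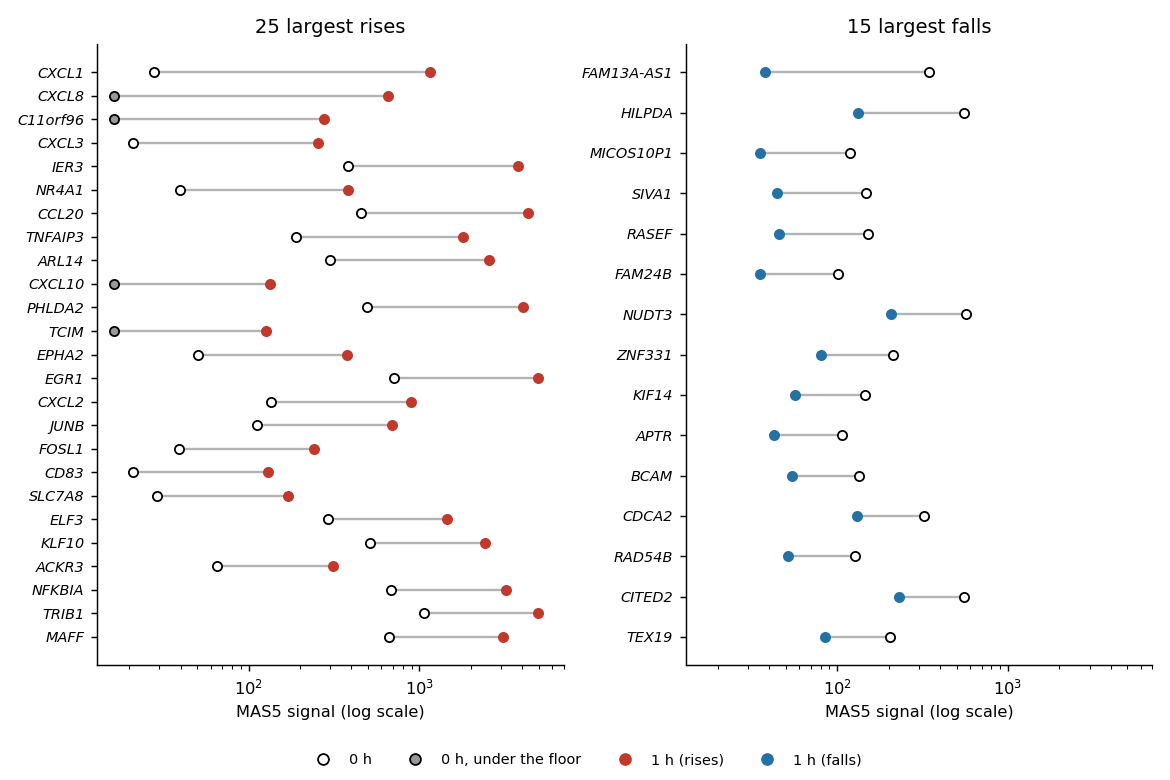
The 25 largest rises (left) and the 15 largest falls (right) among genes whose brighter array reached 100, as MAS5 signals on a log scale, with open circles for the 0 h array, filled circles for the 1 h array and grey circles for 0 h signals under the floor of 16.2. Genes are ordered by fold, and CXCL1 ran from 27.8 to 1158 while FAM13A-AS1 ran from 344 to 38.0.

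NF-kB inhibitors and subunits rose alongside these ligands. Shown are the promoters of TNFAIP3 and NFKBIA, which carry matches to the kB consensus in the 120 bases before their start, all on the opposite strand and marked in capitals.
NFKBIA, chr14:35404750-35404869, minus strand: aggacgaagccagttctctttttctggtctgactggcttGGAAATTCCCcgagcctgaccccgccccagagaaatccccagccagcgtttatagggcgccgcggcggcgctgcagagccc
TNFAIP3, chr6:137867139-137867258, plus strand: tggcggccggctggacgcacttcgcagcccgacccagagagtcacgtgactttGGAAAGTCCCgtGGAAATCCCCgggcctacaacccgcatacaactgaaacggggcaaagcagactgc

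TNFAIP3, which encodes the ubiquitin-editing inhibitor A20, went from 190 to 1802 (9.48-fold), and its other probe set had a log2 ratio of 3.48. It held 1778 at 3 h and 1819 at 6 h and was at 251 at 48 h. NFKBIA, which encodes the classical inhibitor IkB-alpha, went from 682 to 3203 (4.69-fold) and was 3230 and 3103 at 3 and 6 h, but its other probe set had a log2 ratio of 0.02. Other IkB family members that rose were NFKBIE, NFKBID and NFKBIZ. NFKBIE went from 98.2 to 237 (2.42-fold), NFKBID from 26.5 to 58.1 (2.19-fold) and NFKBIZ, a nuclear IkB protein needed for part of the late targets, from 874 to 1771 (2.03-fold). The other probe sets of NFKBID had log2 ratios of -0.14 to 0.66 and that of NFKBIZ had 0.18, and with the median over probe sets both were under 2-fold, at log2 ratios of 0.66 and 0.60. In all, 5 of 13 measured inhibitors rose and none fell, with a median log2 ratio of 0.54. Of 15 listed, 14 had a probe set with their symbol alone, so the list is not complete here. TNIP1 and TNIP2, partners of A20, had log2 ratios of 0.54 and 0.60, and CYLD, a deubiquitinase of the same pathway, of 0.00. With probe sets ending in _x_at or _s_at left out, 1 of 10 measured inhibitors rose. TNFAIP3 and NFKBIZ then had no value, so they left the count as unmeasured.

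Among the subunits, 3 of 5 rose. RELB, the partner of p100 in the alternative pathway, went from 17.1 to 99.7 (5.82-fold). REL went from 122 to 484 (3.96-fold), and its 3 other probe sets had log2 ratios of 1.80 to 2.13. NFKB2, which encodes p100, went from 56.4 to 167 (2.97-fold) and rose further to 377 at 6 h. NFKB1, which encodes p105, had 157 and 227 at 0 and 1 h (1.44-fold) and 497 at 6 h. RELA, the constitutive transactivating subunit, had 314 and 332. Most transducers upstream stayed within 2-fold. Of 22 measured components of Toll-like, interleukin-1 and TNF receptor signalling, 2 rose (9.09%, against 2.16% of all measured genes). Their list had a median log2 ratio of 0.04. The 2 were MAP3K8, a kinase that links this pathway to ERK, from 71.1 to 156 (2.19-fold), and TNFRSF1B, the second TNF receptor, from 24.3 to 49.4 (2.03-fold). However, the other probe set of MAP3K8 had a log2 ratio of 0.36. TNFRSF1B was under 2-fold with quantile normalization (log2 ratio 0.96) and with a floor at the 65th percentile (0.40). MYD88, IKBKB and TRAF6 had log2 ratios of -0.25, -0.32 and -0.38.

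Of 10 measured survival genes that NF-kB is known to induce, 2 rose (20.0%, against 2.16% of all measured genes). Of 14 listed, 12 had a probe set with their symbol alone, so this list is not complete either. IER3, which restrains cell death, went from 380 to 3763 (9.91-fold) and kept 3312 at 3 h and 2783 at 6 h. GADD45B, a stress sensor that dampens JNK signalling, went from 126 to 298 (2.37-fold) and was 145 at 3 h. Its 3 other probe sets were under 2-fold, with log2 ratios of 0.50 to 0.77. SOD2, the mitochondrial superoxide dismutase, had 290 and 521 (1.80-fold) in the probe set that carries its symbol alone, and its probe sets that carry a second symbol were not used for genes. In the same list MCL1 had 835 and 1292 (1.55-fold). BIRC2, CFLAR and XIAP had log2 ratios between -0.13 and -0.02. Of surface molecules on the adhesion and costimulation list, 2 of 8 measured rose. ICAM1, the ligand of leukocyte integrins, went from 109 to 277 (2.55-fold) and was 506 at 6 h. CD83, better known from mature dendritic cells, went from 21.2 to 129 (6.10-fold). CD40 had 27.5 and 20.3, and CD44 had a log2 ratio of -0.38.

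**Figure D3:**
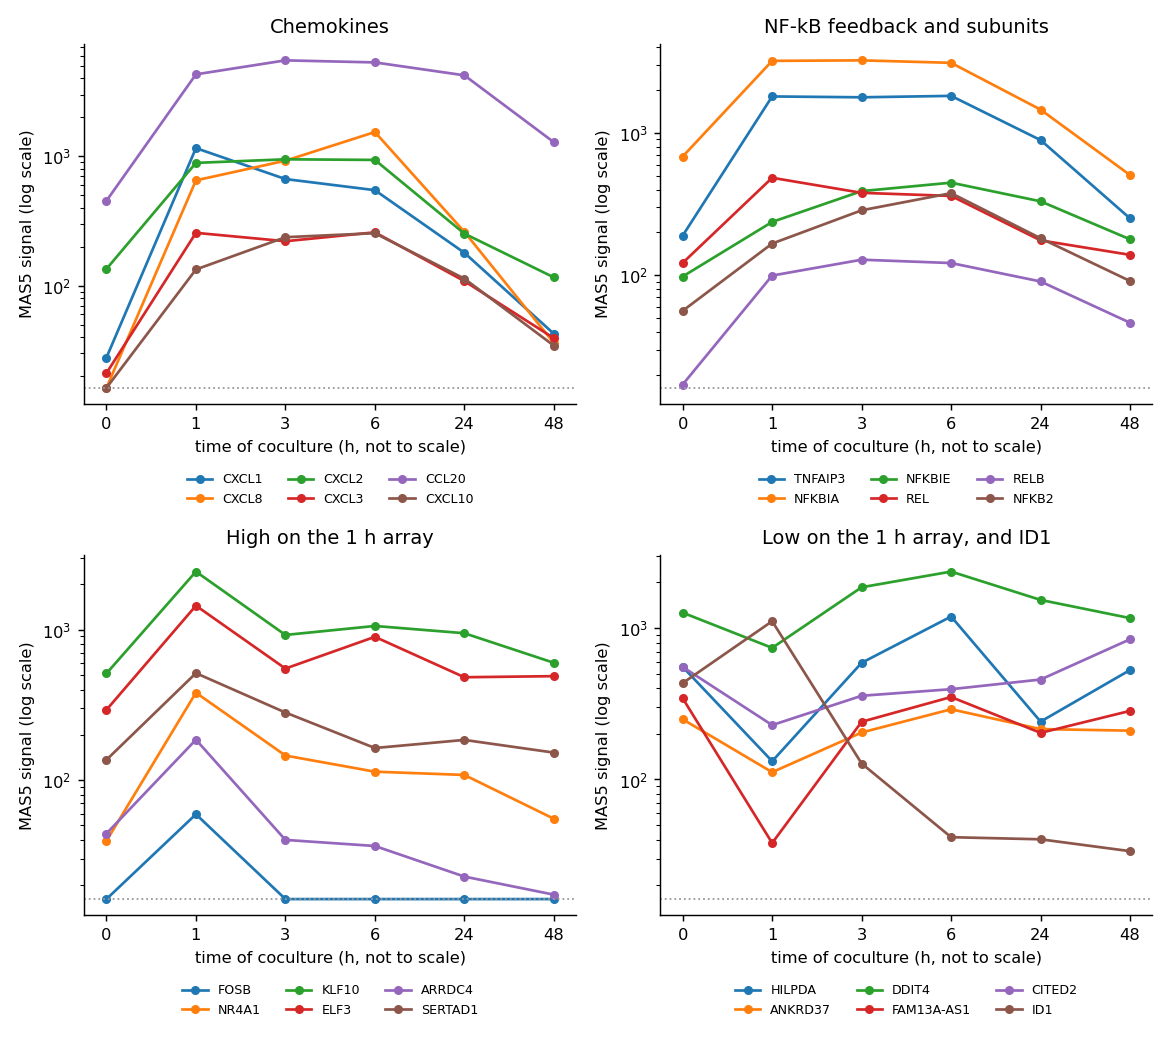
Signal on each of the 6 arrays for chemokines, NF-kB inhibitors and subunits, genes highest on the 1 h array, and genes lowest there together with ID1, as MAS5 signals on log scales against time of coculture, with times evenly spaced and the floor of 16.2 dotted. Each point is 1 array, values under the floor are drawn at it, the genes were picked after their values were seen, and FOSB is above the floor at 1 h alone.

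Immediate-early transcription factors formed the next group. EGR1, the zinc-finger factor that MAP kinases switch on through serum response factor, is shown because its promoter holds this factor's binding sequence, the CArG box. Matches are in capitals, and each reads as a match on both strands.
EGR1, chr5:138465359-138465478, plus strand: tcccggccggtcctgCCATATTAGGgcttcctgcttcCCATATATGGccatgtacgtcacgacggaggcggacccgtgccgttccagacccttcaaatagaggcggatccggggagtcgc

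EGR1 went from 714 to 4944 (6.92-fold), its 2 other probe sets had log2 ratios of 2.11 and 2.49, and the signal was 4071 at 3 h and 963 at 24 h. NR4A1, an orphan nuclear receptor, went from 39.5 to 381 (9.64-fold) and was at 146 at 3 h. Its other probe set had a log2 ratio of 0.98. IER2 went from 932 to 2664 (2.86-fold), and NAB2, a co-repressor of EGR proteins, from 54.1 to 126 (2.33-fold). EGR3 and EGR4 were under the floor at 0 h with 5.72 and 10.3 and reached 41.5 and 60.7. SRF itself had 56.7 and 103 (1.82-fold). In all, 6 of 11 measured members of the EGR, NR4A and IER list rose, with a median log2 ratio of 1.22. IER5L fell from 61.3 to 26.2.

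AP-1 is a dimer of FOS and JUN family proteins, and its founding pair was not among the members that rose. JUNB went from 112 to 693 (6.19-fold) and FOSL1 from 39.3 to 241 (6.13-fold). MAFF, a small MAF protein, went from 666 to 3104 (4.66-fold), with a log2 ratio of 2.06 in its other probe set. ATF3, a stress-induced member, went from 177 to 510 (2.87-fold), but its other probe set had a log2 ratio of 0.37. FOSB was under the floor on 5 arrays, where it did not exceed 9.05, and had 59.4 at 1 h, at least 3.66-fold higher than at 0 h. FOS had 85.4 and 140 (1.64-fold) and was higher later, at 338 at 3 h and 502 at 6 h. JUN had 318 and 495 (1.56-fold), with log2 ratios of 0.58 to 1.66 in its 3 other probe sets. Thus 5 of 13 measured AP-1 and ATF factors rose, with a median log2 ratio of 0.64.

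Kruppel-like factors, zinc-finger proteins that include regulators of epithelial growth, rose in 4 of 10 measured cases. KLF10, also known as TIEG1, went from 511 to 2427 (4.75-fold) and was down to 921 at 3 h. KLF6 went from 870 to 2206 (2.54-fold), KLF3 from 914 to 1992 (2.18-fold) and KLF13 from 113 to 226. KLF4, a factor of differentiated enterocytes and goblet cells, had 578 and 1111 (1.92-fold) and 2176 at 6 h. Of 21 other early transcription factors, 5 rose. ELF3, an epithelial ETS factor, went from 293 to 1441 (4.92-fold) and was 551 at 3 h, and its 2 other probe sets had log2 ratios of 1.53 and 1.71. ETS2 went from 177 to 636 (3.59-fold), SERTAD1 from 136 to 514 (3.76-fold), CSRNP1 from 131 to 407 (3.11-fold) and IRF1, the first interferon regulatory factor described, from 58.5 to 190 (3.25-fold). MYC had 611 and 798, and 1760 at 6 h. ETS1 and NFIL3 had log2 ratios of -0.88 and -0.68.

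**Figure D4:**
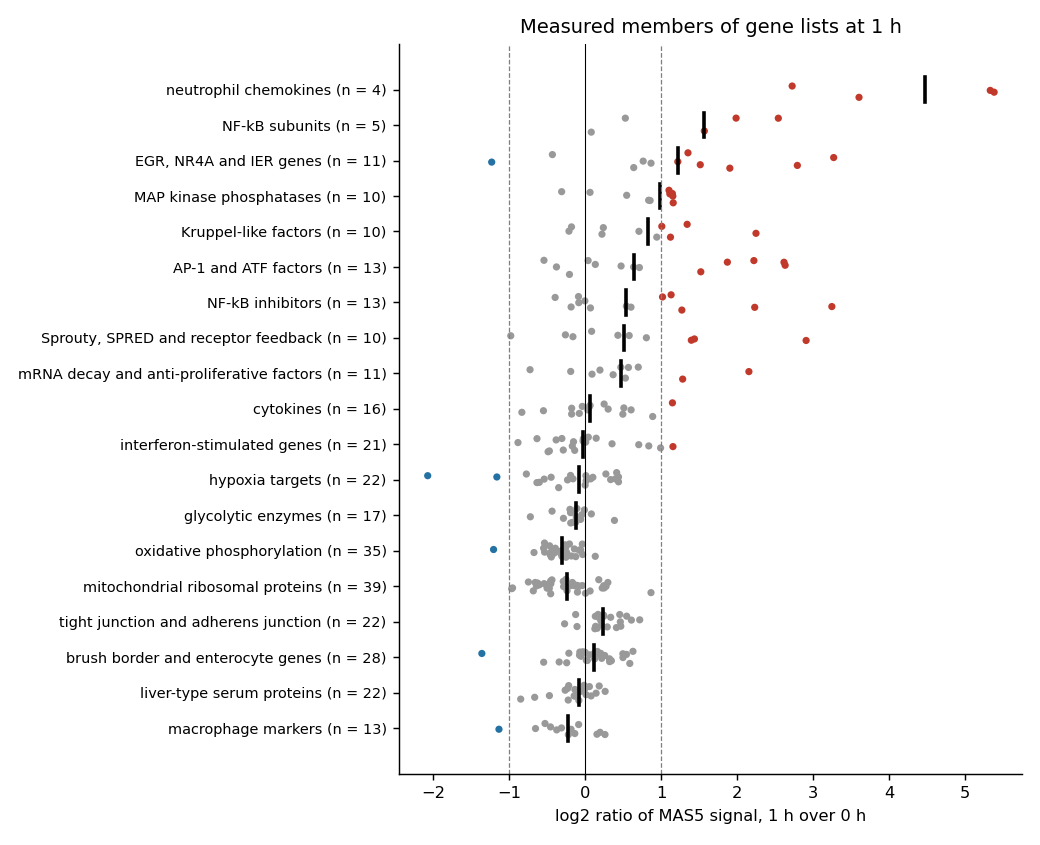
Log2 ratio of 1 h over 0 h (x axis) for each measured member of 19 gene lists (rows, with the number measured), where each point is 1 gene with 1 array a side, red points rose and blue points fell at least 2-fold, and black bars are medians. Neutrophil chemokines have the highest median at 4.47, while oxidative phosphorylation lies at -0.30.

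Feedback genes of the MAP kinase routes rose in part. Dual-specificity phosphatases, which switch off MAP kinases, rose in 5 of 10 cases, and the 5 lay between 2.15-fold and 2.23-fold in their brightest probe sets. Other probe sets differed, with log2 ratios of 1.84 and 1.92 for DUSP4 and of 0.66 and 0.83 for DUSP6. DUSP1, which acts on p38 and JNK, went from 835 to 1865. DUSP6, an ERK phosphatase, went from 963 to 2135, DUSP5 from 733 to 1630, DUSP8 from 183 to 397 and DUSP4 from 75.8 to 163. When the median over the probe sets of a gene replaced the brightest one, 3 of the 10 rose. Of the Sprouty and receptor feedback list, 3 of 10 rose. EPHA2, an ephrin receptor kinase, went from 50.5 to 378 (7.50-fold), PHLDA1 from 305 to 826 (2.71-fold) and SPRY4 from 46.3 to 122 (2.63-fold). SPRY1 moved the other way, from 193 to 98.2 (1.97-fold lower). The ligands EREG and HBEGF, which activate the EGF receptor, went from 60.4 to 170 (2.81-fold) and from 68.2 to 165 (2.42-fold), while EGFR had 511 and 427.

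Regulators of mRNA lifetime and cytokine signalling were mixed. ZFP36, which encodes tristetraprolin and marks cytokine mRNAs for decay, went from 165 to 735 (4.45-fold) and reached 1164 at 6 h. ZC3H12C, of the regnase family, went from 275 to 670 (2.43-fold). The other 9 measured members of that list did not pass 2-fold, 11 of the 13 listed having a probe set with their symbol alone, and RC3H2, which encodes roquin-2, had 543 and 328. Of 22 measured genes of SOCS, PIM and JAK-STAT signalling, PIM3 alone rose (4.55%, against 2.16% of all measured genes), from 243 to 907 (3.73-fold). SOCS3 had 78.7 and 106, and SOCS1 had 46.8 and 24.6. Interferon-stimulated genes had a median log2 ratio of -0.03 over 21 measured members. Of these IFI6 alone (4.76%) passed 2-fold, from 14.1 under the floor to 36.1, and IFIT2 had 57.0 and 30.9.

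ID1, which blocks DNA binding by basic helix-loop-helix proteins and is a target of BMP signalling, had a course of its own. It went from 433 to 1110 at 1 h (2.56-fold) and then stood at 128 at 3 h, 41.6 at 6 h and 33.6 at 48 h, under its 0 h signal. ID2 and ID3 had log2 ratios of -0.21 and -0.18 at 1 h. SKIL, which represses SMAD signalling, went from 128 to 444 (3.48-fold), and PMEPA1 from 65.1 to 130, then 508 at 3 h. BMP2 had 690 and 1316 (1.91-fold) and 2305 at 3 h. Of 12 measured genes of matrix remodelling (2.16% of all measured genes rose), 3 rose and the median log2 ratio was 0.56. PLAUR, the urokinase receptor, went from 51.3 to 219 (4.28-fold), although its other probe sets ranged from 0.08 to 2.36 on the log2 scale. MMP1, interstitial collagenase, went from 475 to 985 (2.07-fold) and reached 5096 at 6 h. ITGB8 went from 26.6 to 67.2 (2.52-fold) and reached 535 at 6 h.

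Other large rises belonged to no list, except PCK1, which is on the glucose and TXNIP response list. ARL14, a small GTPase of the ARF family, went from 299 to 2559 (8.56-fold), and TRIB1, a pseudokinase, from 1058 to 4947 (4.68-fold) with a log2 ratio of 3.62 in its other probe set. PHLDA2 went from 492 to 4031 (8.19-fold), but its other probe set had a log2 ratio of 0.29. C11orf96 went from 9.69 under the floor to 277, at least 17.1-fold higher, against 0.33 on the log2 scale in its other probe set. SLC7A8, an amino acid transporter, went from 29.1 to 171 (5.88-fold), with its 3 other probe sets between -0.17 and 1.86. PCK1, the gluconeogenic enzyme phosphoenolpyruvate carboxykinase, went from 633 to 2168 (3.43-fold). Chosen after their values were seen, F3, which encodes tissue factor and starts coagulation, went from 178 to 570 (3.20-fold), and SIK1, a salt-inducible kinase, from 231 to 764 (3.31-fold). RCAN1, an inhibitor of calcineurin, went from 348 to 888 (2.55-fold), and MACC1, a regulator of the MET receptor gene, from 125 to 513 (4.11-fold). However, the other probe set of RCAN1 had a log2 ratio of 0.19, and the 2 others of MACC1 had -0.06 and -0.003.

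A subset peaked sharply. By a rule set after the values were seen, 15 of the brighter genes exceeded at 1 h both their 0 h and their 3 h signal by 2-fold or more. These were NR4A1, ELF3, KLF10, ACKR3, ARRDC4, IRF1, UNC93B1, ZBTB24, ID1, ITPKC, GADD45B, OVOL1, RNA45SN5, LRRC61 and FBXL16. ARRDC4, an arrestin-domain gene that glucose is known to induce, had 44.2 at 0 h, 186 at 1 h and 40.1 at 3 h, while its companion TXNIP had a log2 ratio of -0.28 at 1 h. OVOL1, an epithelial zinc-finger factor, had 422, 991 and 439. RNA45SN5, the precursor of ribosomal RNA, had 75.5, 177 and 72.1. A signal high on 1 array alone rests on that array. Of the 150 genes that rose, the highest signal after 0 h was at 1 h for 61, at 3 h for 36, at 6 h for 42, at 24 h for 4 and at 48 h for 7. These genes were picked by their 1 h signal, which by itself favours the 1 h array in that count.

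Falls were fewer and smaller, and HILPDA led those of coding genes. HILPDA, a lipid-droplet protein known as a hypoxia target, went from 554 to 132 (4.20-fold lower), with a log2 ratio of -1.63 in its other probe set, and returned to 590 at 3 h and 1191 at 6 h. ANKRD37, another hypoxia target, went from 250 to 112 (2.24-fold lower) and was 204 at 3 h. DDIT4, PDK1 and KDM3A did not pass 2-fold but had log2 ratios of -0.77, -0.60 and -0.54. The hypoxia list as a whole was divided, with 11 of 22 measured members above 0 and 11 below and a median log2 ratio of -0.08. VEGFA and SLC2A1 had log2 ratios of 0.44 and 0.40. CITED2, which competes with HIF-1 for its co-activator, went from 553 to 229 (2.42-fold lower), with a log2 ratio of -1.12 in its other probe set, and was 843 at 48 h.

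The largest fall among genes with a probe set of their own was of a non-coding RNA, FAM13A-AS1, antisense to FAM13A. It went from 344 to 38.0 (9.03-fold lower). Its other probe set had a log2 ratio of -1.57, and the signal was 240 at 3 h and 350 at 6 h. How its probes treat strand was not examined here, so signal of the sense gene cannot be told apart. Of the 55 genes that fell, 48 were protein-coding, 4 were long non-coding RNAs and 3 were transcribed pseudogenes, and of the 150 that rose 149 were protein-coding. RASEF, a RAB GTPase with EF hands, went from 151 to 45.9 (3.29-fold lower) with a log2 ratio of -1.17 in its other probe set. Genes of cell division and DNA repair among the 15 largest falls were KIF14 (145 and 56.7), CDCA2 (321 and 131) and RAD54B (127 and 51.8), but the other probe sets of KIF14 and CDCA2 had log2 ratios of 0.01 and 0.60. The cell cycle list did not move with them, with 1 of 32 measured members lower and a median of -0.07. SIVA1 (147 and 44.6) and NUDT3 (570 and 208) fell in their brightest probe set. They reversed to log2 ratios of 0.06 and 0.05 once probe sets ending in _x_at or _s_at were left out. The same holds for MCM5 (166 and 70.4), which then had 0.28.

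Respiratory and glycolytic genes and those of mitochondrial ribosomes were mostly a little lower at 1 h. Of 35 measured subunits of oxidative phosphorylation, 34 had a log2 ratio below 0, where 55.9% of all measured genes did. Their median was -0.30, within -0.31 to -0.23 under the 8 alternative settings. NDUFS3, a core subunit of complex I, was the member to pass 2-fold, from 657 to 285 (2.30-fold lower), and it stayed low at 197 at 3 h and 194 at 48 h. NDUFV2 had 3096 and 1944 (1.59-fold lower). Mitochondrial ribosomal proteins had a median of -0.24 with 30 of 39 below 0. MRPS14 and MRPL34 had 476 and 244, and 486 and 251, while MRPS16 had 175 and 320. Glycolytic enzymes had a median of -0.12 with 15 of 17 below 0, and none passed 2-fold. Cytosolic ribosomal proteins had -0.09. The medians of these 4 lists stayed below 0 under all 8 alternative settings. So did the median over all measured genes, at -0.06 to -0.02, and all settings use the same arrays. The 3'-to-5' ratio of ACTB, which fell from 51.2 to 27.7, moved with these lists, and its part was not tested.

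Genes of the epithelial barrier and of enterocyte identity stayed within 2-fold, apart from MGAM. Of 22 measured tight-junction and adherens-junction genes none passed 2-fold, 19 had a log2 ratio above 0 and the median was 0.23. CLDN3 and CLDN4, claudins of tight epithelia, had 92.8 and 153, and 92.8 and 141. In 28 measured brush-border and enterocyte genes MGAM, the disaccharidase maltase-glucoamylase, passed 2-fold, from 42.6 to 16.6. VIL1, which encodes the microvillus protein villin, had 2171 and 2257, and CDX2, the intestinal homeobox factor, had 89.2 and 103. Liver-type serum proteins, which Caco-2 cells also make, had a median of -0.09 with none of 22 past 2-fold. Of the reference genes, ACTB had 7708 and 8087 and GAPDH had 7024 and 6481.

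Most members of the stress lists stayed within 2-fold. Of 15 measured p53 targets and growth-arrest genes 2 rose (13.3%, against 2.16% of all measured genes). These were PLK3, a Polo-like kinase (26.5 and 81.0), and BAX, a promoter of apoptosis (44.9 and 120). The list had a median of 0.58 with 11 of the 15 above 0. MDM2 and CDKN1A did not pass 2-fold, with log2 ratios of 0.80 and 0.66. The other probe sets of PLK3 and BAX had log2 ratios of 0.68 and 0.29. Of 17 heat shock proteins HSPB1 fell, from 94.6 to 42.8. Of 20 genes of the unfolded protein response CHAC1, a glutathione-degrading enzyme, fell from 47.1 to 19.7, and DDIT3 had 196 and 332. Metallothioneins split, with MT1F lower at 63.4 and 20.6, MT2A lower at 50.2 and 24.5 and MT1X at 13.3 and 31.6. Their median of 0.24 turned to -0.42 with a floor at the 65th percentile and to -0.18 with the median over probe sets. NRF2 targets and cholesterol genes had no member past 2-fold, with medians of -0.04 and 0.09.

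Many genes have more than 1 probe set, which reads another part of the same transcript from the same RNA. Among the 150 genes that rose, 83 had another probe set above the floor, and the median of the others went the same way in 73. It was at least 1.5-fold higher in 44 and at least 2-fold higher in 31. Among the 55 that fell, 31 had another probe set, with 26 the same way, 11 at least 1.5-fold and 5 at least 2-fold. The brightest probe set was picked by its mean over all 6 arrays, and a gene counted by that probe set alone, so only the others are free of the 2-fold rule.

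**Figure D5:**
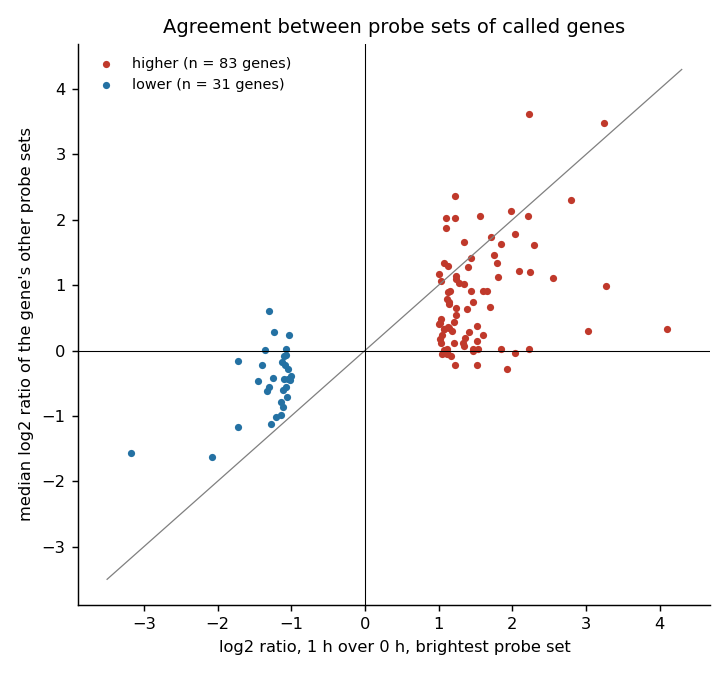
Log2 ratio of 1 h over 0 h in the brightest probe set (x axis) against the median log2 ratio of the other probe sets of the same gene above the floor (y axis), for genes that rose (83, red) or fell (31, blue) among those reaching 100. Each point is 1 gene and the grey line marks equal ratios, and most points lie closer to 0 on the y axis, with 73 of 83 and 26 of 31 on the same side of 0.

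The promoter sequences printed above were compared with those of all genes. RefSeq promoters, 300 bases from 250 before to 50 after the start, were found for 115 of the 150 genes that rose, with 165 promoters, and for 43 of the 55 that fell, with 64 promoters. All matches were searched on both strands. GGAATTTCC was in 7.27% of promoters of genes that rose, in 0 of the 64 of genes that fell, and in 0.418% of the promoters of all genes reaching 100. The 11 genes with it among those that rose were CXCL1, CXCL2, CXCL3, CXCL8, CXCL10, DUSP6, ICAM1, MAP3K8, NFKBIA, NFKBIZ and REL. The kB consensus, which can overlap GGAATTTCC, was in 17.0% of promoters of genes that rose, 0 of 64 of those that fell and 6.79% of those reaching 100. TATAAA was in 14.5%, 4.69% and 6.38%.

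Further motifs were counted in the same promoters. TGACGTCA, the cyclic AMP response element, was in 5.45%, 1.56% and 2.94% of these promoters, and was present in DUSP1, MAFF, SKIL and EPHA2. The shorter TGACGT, which TGACGTCA contains, was in 12.7%, 6.25% and 10.9%. TGANTCA, with any base at N and so looser than the AP-1 site it includes, was in 7.27%, 4.69% and 5.09%. The CArG box was in 3.03%, 1.56% and 1.26%. GGGCGG, the GC box, was in 64.2%, 32 of 64 promoters and 67.1%, GGAAG, the ETS core, in 77.6%, 76.6% and 76.3%, and CACGTG, the E-box, in 12.7%, 6.25% and 10.2%. Over all 35116 promoters of the table, GGAATTTCC was in 0.461%, the kB consensus in 5.91% and TATAAA in 11.5%. These are shares of letters in a window, in which related genes and the several promoters of 1 gene are counted separately, and they do not show binding.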

How the data were processed

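Caco-2 RNA was profiled on 6 Affymetrix human arrays, 1 per time, of which those at 0 h and 1 h are compared. Per the labels' protocols, biotin-labelled cRNA was made from 4 µg of total RNA. The deposited values are probe-set intensities on a linear scale, MAS5 signals per the submitters' processing notes. Its version, its scaling target and the detection calls: not given in the sources used here. The method scales each array, so total RNA per cell is not measured, and low signals are noisy.

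The annotation table gave 1 gene symbol for 41091 of 54675 probe sets, several for 1801 and none for 11721, and 62 were controls. The gene identifiers of 41037 were found in a RefSeq table of assembly GRCh38.p14, which updated symbols. Values under 16.2, the 50th percentile, were set to it, log2 was taken from the deposited intensities, and the probe set with the highest mean over the arrays was used per gene. A fold whose dimmer array was at the floor is a bound from below. Of genes at least 2-fold different, 50 of 280 higher and 66 of 215 lower ones were of this kind.

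The members, the limit of 100 and the 43 gene lists, with 883 entries, were chosen with earlier results of these data known. Named genes are the 25 largest rises and 15 largest falls among genes reaching 100, in each list any member past 2-fold and up to 4 with the largest differences, and 26 genes always named. Any other name was picked with its values known, as the text says. Promoters printed, and the 10 motifs given, were also chosen after values and sequences were seen; other kB and AP-1 patterns looked at first are not given. Promoters and their coordinates are from RefSeq, GRCh38.p14, and the deposited table names no build.

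Alternatives were quantile normalization, loess, floors at the 30th and 65th percentiles, the floor as a pseudocount, the median over probe sets, dropping the suffixes _x_at and _s_at, and other limits of fold. Choosing the brightest probe set on signals without a floor was added after seeing the data. Scripts ran in Python 3.11.15 with numpy 2.4.6 and pandas 2.3.3 and were tested on simulated data.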

Additional observations from a re-analysis of the deposited data

Results flagged for a closer look

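Probe sets without exactly 1 gene symbol in the annotation table were left out of all results by gene. Of 1707 of them whose brighter array reached 100, 95 were at least 2-fold higher at 1 h and 45 were at least 2-fold lower. For the 7641 genes reaching 100, counted by their brightest probe set, the numbers were 150 (1.96%) and 55 (0.72%). Among the 95, 79 carried no symbol and 16 carried several. The largest rise ran from 31.1 to 589 (18.9-fold), in a probe set without a symbol. The largest fall, also without a symbol, ran from 1374 to 110, a log2 ratio of -3.64, with 1125 at 3 h. That fall was larger than the one of FAM13A-AS1. These probe sets drew attention because signal differed in data that the gene-level comparison does not use, and which transcripts they read was not examined here.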

How the results depend on the processing

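With 1 array per time there is no replicate to leave out, and no measure of the spread between cultures. No paired analysis was possible because each time holds 1 array. The number of arrays limits the precision, and signals near the floor add most to it.

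The counts over all measured genes followed the floor. With a floor at the 30th percentile 828 genes were higher and 986 lower, and with one at the 65th percentile 168 and 78. The lower floor turned the excess of rises into one of falls. A limit of 1.5-fold gave 959 higher and 1194 lower (467 and 450 among genes reaching 100), which also turned it. A limit of 3-fold gave 71 and 19 (55 and 5). Among genes reaching 100, the 55 lower ones became 32 with the floor as a pseudocount and 32 with the median over probe sets, of which 27 were among the 55. The count of 150 higher ones stayed within 1.5 times under every setting that kept the 2-fold limit, but its members changed. With the median over probe sets 129 genes were higher, of which 98 were among the 150. Without the suffixes _x_at and _s_at 117 were higher, of which 102 were among the 150.

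Rising dual-specificity phosphatases went from 5 to 3 with the median over probe sets. Without probe sets of the suffixes _x_at and _s_at, rising neutrophil chemokines went from 4 to 2 of 2 measured, NF-kB inhibitors from 5 to 1 of 10, and Kruppel-like factors from 4 to 2 of 7. Some members had no value under that setting, TNFAIP3 and NFKBIZ among them. MCM5, NUDT3 and SIVA1 then reversed to log2 ratios of 0.28, 0.048 and 0.064. The metallothionein median reversed to -0.42 at the 65th percentile floor and to -0.18 with the median over probe sets. The cause of the reversals was not tested. Of 101 named genes past 2-fold, 55 stayed past it under every setting that gave a value, and 712 of 784 pairs of gene and setting kept it. Of the 72 lost, 28 were lost with the median over probe sets. That median includes probe sets under the floor on both compared arrays if a later array exceeded it. Their ratio is fixed at no difference, so not every such loss is a disagreeing measurement.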
